A study of Homo sapiens with 6 samples.

Results

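The genes of cholesterol and fatty acid synthesis were followed through knockdown of EWSR1::ATF1 (EA1) in SU-CCS-1, an established human clear cell sarcoma cell line that carries this fusion. The members are 33 genes chosen by symbol, all found among the 18118 rows of the counts and all expressed above the filter on low counts. They were chosen with earlier results of these data known, so that their shares of calls are not independent of the choice. They comprise the enzymes of the sterol pathway, lipoprotein receptors, the SREBP regulators and the enzymes of fatty acid synthesis and desaturation. RNA-seq was performed on 6 libraries of SU-CCS-1 cells transfected, per the study's methods, for 48 h with 5 pmol of siRNA. There were 2 libraries with the negative control siRNA siNeg1 (labelled as scramble), 2 with siEA1-1 and 2 with siEA1-2, which the labels give as separate knockdowns of EA1, although the methods name 1 siRNA against it. All groups share the same line, and no untransfected cells were analysed here. The labels do not say whether replicates came from separate cultures, so that p-values measure the spread between these libraries only. A positive log2FC stands for higher expression after knockdown than in siNeg1, and ± beside a log2FC is its standard error. Levels are CPM, counts scaled to a common normalized library size, and ± beside a level is the SD of 2 libraries.

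The libraries held 5942808 to 7599305 counts, so that 3 counts, taken as the smallest level told from 0, correspond to 0.386 to 0.534 CPM. These limits cover counting error only. ATF1, whose row counts reads of the fusion and of the normal gene alike, fell from 82.2 and 87.4 CPM in siNeg1, 21.2 and 20.3 CPM with siEA1-1, and 21.7 and 22.3 CPM with siEA1-2, with a log2FC of -2.03 ± 0.13 with siEA1-1 (adjusted p = 6.70e-07) and -1.94 ± 0.13 with siEA1-2 (adjusted p = 1.04e-06) by edgeR's quasi-likelihood test. These counts cannot tell whether RNA of the normal ATF1 gene fell along with that of the fusion. EWSR1 is the other fusion partner, and its row likewise counts reads of the fusion and of the normal gene. It had a log2FC of -0.11 ± 0.11 with siEA1-1 (adjusted p = 0.450) and -0.04 ± 0.11 with siEA1-2 (adjusted p = 0.789) in the same edgeR test. Markers of the line were present in siNeg1, with SOX10 at 827 CPM, MITF at 654 CPM and PMEL at 1220.0 CPM on average, whereas MLANA stood at 4 counts and 0 counts. After knockdown PMEL averaged 4845 CPM with siEA1-1 and 6004 CPM with siEA1-2, and MITF 1105 CPM and 1146 CPM. Of 6 markers of the line, 5 were called higher with siEA1-1 and 4 with siEA1-2, where 19.9% and 18.5% of all genes tested were called higher. The part of these markers in the lipid genes was not tested. Of markers of other cell types, CD68, CDH5, VWF and KRT14 had 0 to 12 counts in any library.

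Cells make cholesterol from acetyl-CoA through mevalonate, squalene and lanosterol, and fatty acids from the same precursor through malonyl-CoA. Both routes are under the control of the SREBP transcription factors, membrane proteins that SCAP escorts from the endoplasmic reticulum to the Golgi when sterols are low and that the INSIG proteins hold back when sterols are plentiful. SREBP-2, the product of SREBF2, mainly drives the sterol genes and the lipoprotein receptors, while SREBP-1, the product of SREBF1, mainly drives the fatty acid genes.

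Most sterol genes rose after knockdown of EA1, SCD rose with them, and the fatty acid synthase gene FASN was lower. With siEA1-1, 20 of the 33 genes were called higher and 1 lower at an adjusted p under 0.05 by edgeR's quasi-likelihood test. Among all 14571 genes tested, the same test called 19.9% higher and 20.3% lower, against 60.6% and 3.03% of the members. With siEA1-2, 16 genes were called higher and 2 lower, where 18.5% of all genes tested were called higher and 18.2% lower. The median log2FC of the members was 0.64 with siEA1-1 and 0.35 with siEA1-2, beside 0.02 and 1.42e-04 over all genes tested. Both comparisons share the siNeg1 libraries and are therefore given side by side. A total of 16 genes were called higher with each siRNA, namely HMGCS1, MVK, FDFT1, SQLE, CYP51A1, MSMO1, NSDHL, HSD17B7, SC5D, DHCR7, VLDLR, STARD4, SREBF2, SCAP, INSIG1 and SCD. MVD, FDPS, SREBF1 and FADS2 were called higher with siEA1-1 and not with siEA1-2, LRP8 was called lower with each siRNA, and FASN was called lower with siEA1-2 and not with siEA1-1. The other 11 genes were called with neither. Averaged over both siRNAs, 18 genes were called higher and 2 lower, against 21.5% and 22.1% of all genes tested. In 20 members every knockdown library lay above both siNeg1 libraries, and in 2 members every knockdown library lay below them, where these shares were 28.1% and 27.3% over all genes tested.

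**Figure D1:**
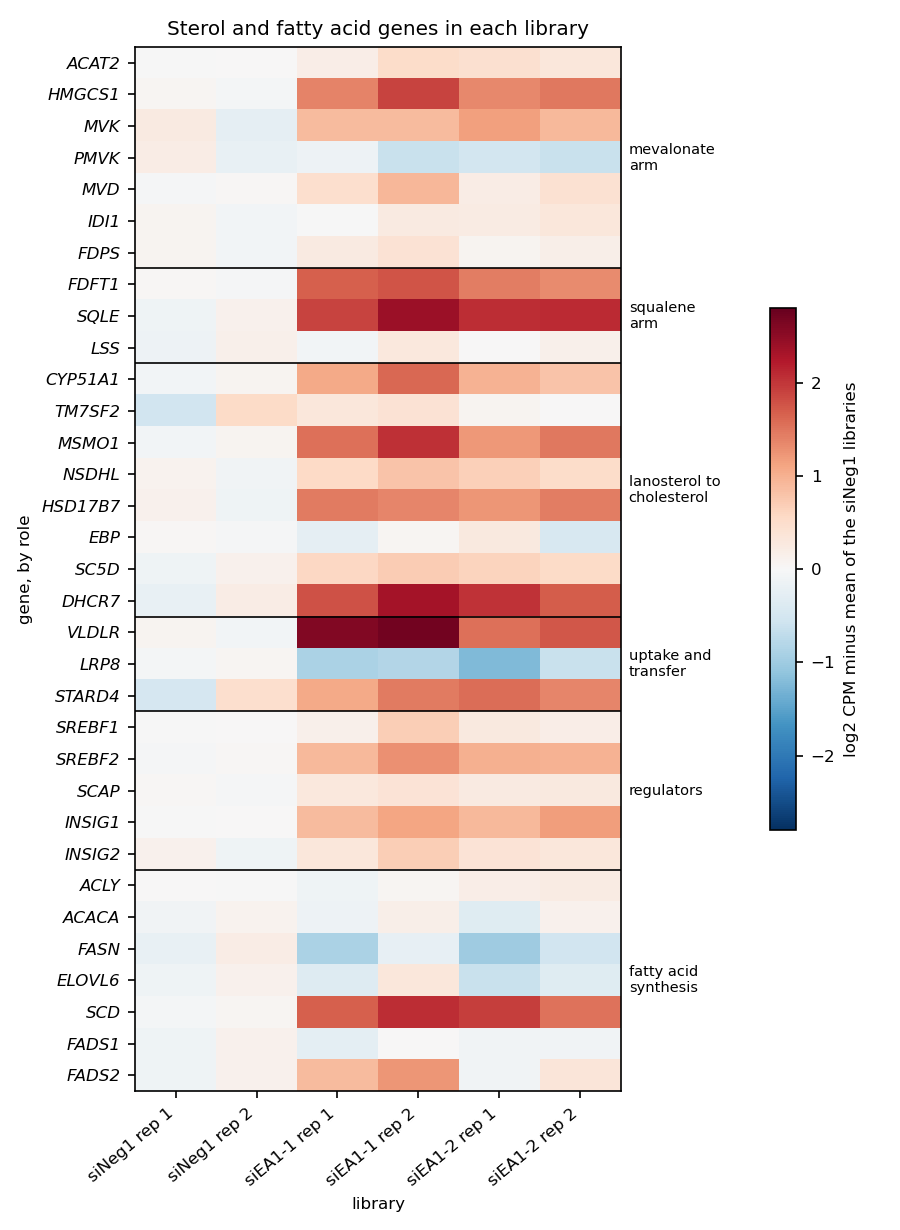
Each cell gives the log2 CPM of a gene in a library minus its mean in the 2 siNeg1 libraries, with genes in rows by role and the 6 libraries in columns. Most sterol genes and SCD are red in all 4 knockdown libraries, LRP8 is blue in them, and ACLY, ACACA and FADS1 stay pale.

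The siEA1-1 replicates differed in the members more than those of the other conditions. In siEA1-1 replicate 2, 31 of the 33 members were higher than in siEA1-1 replicate 1, by a median of 0.32 on the log2 scale, whereas 50.2% of all genes tested were higher there. The corresponding numbers of members were 20 in siNeg1 and 18 in siEA1-2. Without siEA1-1 replicate 2, MVD, FDPS, NSDHL, STARD4, SREBF1, SCAP and FADS2 lost their call with siEA1-1 (log2FC 0.12 to 0.99). Fewer of all genes tested were called higher in that fit too, and leaving out either siNeg1 library also cost calls of members. In bulk RNA, a change in the number of cells that express a gene and a change in its RNA per cell cannot be told apart.

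Of the 5 regulators, 4 were called higher with siEA1-1 and 3 with siEA1-2, beside 19.9% and 18.5% of all genes tested. Their median log2FC was 0.52 with siEA1-1 and 0.35 with siEA1-2. SREBF2 and INSIG1 rose with each siRNA and SREBF1 with siEA1-1. SREBF2 (ENSG00000198911, chromosome 22 from 41833105 to 41907306 of hg38), which encodes the main transcription factor of the sterol genes, had 138 and 146 CPM in siNeg1, 265 and 348 CPM with siEA1-1, and 284 and 280.2 CPM with siEA1-2. Every knockdown library was above both siNeg1 libraries. The log2FC of SREBF2 was 1.11 ± 0.13 with siEA1-1 (adjusted p = 3.88e-05) and 0.99 ± 0.13 with siEA1-2 (adjusted p = 1.12e-04) by edgeR's quasi-likelihood test. INSIG1, itself a sterol-responsive gene whose product retains SCAP, had 43.7 and 44.9 CPM in siNeg1, 81.6 and 95.2 CPM with siEA1-1, and 83.3 and 100.5 CPM with siEA1-2. Its knockdown libraries again lay above both siNeg1 libraries, with a log2FC of 0.99 ± 0.13 with siEA1-1 (adjusted p = 9.52e-05) and 1.06 ± 0.13 with siEA1-2 (adjusted p = 7.67e-05) in the same edgeR test. INSIG2, the paralog that responds little to SREBP, had a log2FC of 0.52 ± 0.21 with siEA1-1 (adjusted p = 0.0644) and 0.35 ± 0.21 with siEA1-2 (adjusted p = 0.220) and was not called by edgeR. SREBF1 had 81.1 and 83.4 CPM in siNeg1, 90.7 and 133 CPM with siEA1-1, and 99.3 and 93.5 CPM with siEA1-2. In SREBF1 the siEA1-1 libraries were far apart from each other, and the log2FC was 0.44 ± 0.15 with siEA1-1 (adjusted p = 0.0386) and 0.23 ± 0.15 with siEA1-2 (adjusted p = 0.277) in the edgeR test. SCAP, the sterol sensor and escort, had the smallest change called among the regulators, with a log2FC of 0.34 ± 0.10 with siEA1-1 (adjusted p = 0.0156) and 0.27 ± 0.10 with siEA1-2 (adjusted p = 0.0486) by edgeR. The SREBF2 to SREBF1 ratio of counts was 1.71 and 1.75 in siNeg1, 2.92 and 2.62 with siEA1-1, and 2.86 and 3.0 with siEA1-2, so that the control and the knockdowns did not overlap. SREBF1 with siEA1-1 was not called without siNeg1 replicate 1, siNeg1 replicate 2 or siEA1-1 replicate 2 (log2FC 0.12 to 0.43). SCAP was not called with siEA1-1 without siNeg1 replicate 1, siNeg1 replicate 2 or siEA1-1 replicate 2 (log2FC 0.27 to 0.36), and with siEA1-2 it lost its call whichever library was left out.

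**Figure D2:**
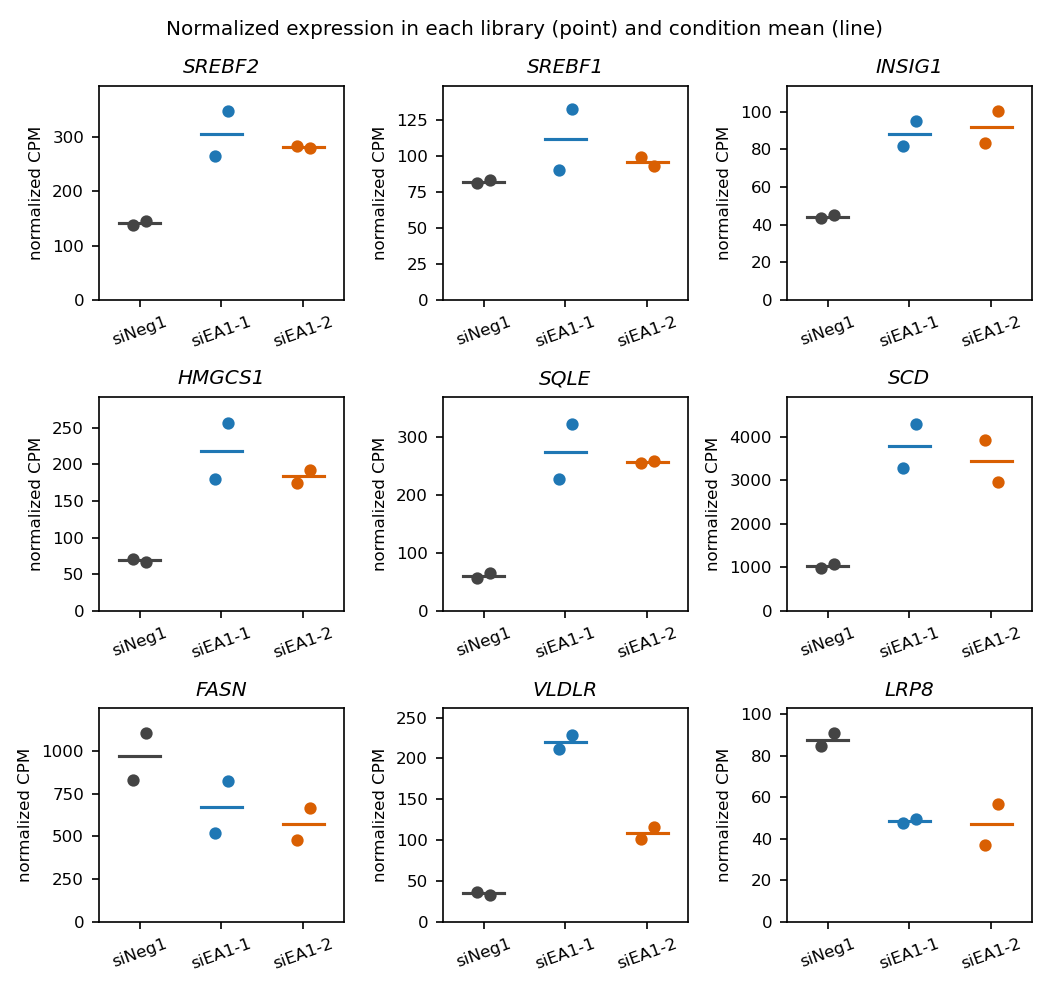
Normalized CPM of 9 genes in each library (points) with the mean of each condition (line); every vertical axis starts at 0. SREBF2, INSIG1, HMGCS1, SQLE, SCD and VLDLR are higher in all knockdown libraries than in siNeg1, LRP8 and FASN are lower in all of them, and FASN in siEA1-1 replicate 2 lies close to siNeg1 replicate 1.

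The mevalonate arm, which leads from acetyl-CoA to farnesyl diphosphate, had 4 of 7 genes called higher with siEA1-1 and 2 of 7 with siEA1-2. Over all genes tested these shares were 19.9% and 18.5%, and the 28.6% of the arm with siEA1-2 lay near the latter. The median log2FC of the arm was 0.35 with siEA1-1 and 0.34 with siEA1-2. HMGCS1 (ENSG00000112972, chromosome 5 from 43287470 to 43313512), the cytosolic HMG-CoA synthase, had 71.4 and 66.7 CPM in siNeg1, 180.5 and 256 CPM with siEA1-1, and 175 and 193 CPM with siEA1-2. This is a rise of 3.16-fold and 2.67-fold, with a log2FC of 1.66 ± 0.15 with siEA1-1 (adjusted p = 8.16e-06) and 1.42 ± 0.15 with siEA1-2 (adjusted p = 3.16e-05) by edgeR's quasi-likelihood test. MVK, the mevalonate kinase, had 15.4 and 10.9 CPM in siNeg1, 24.2 and 24.4 CPM with siEA1-1, and 29 and 24.6 CPM with siEA1-2, with a log2FC of 0.89 ± 0.20 with siEA1-1 (adjusted p = 0.00422) and 1.03 ± 0.20 with siEA1-2 (adjusted p = 0.00192) in the same edgeR test. MVD, which decarboxylates mevalonate diphosphate, had a log2FC of 0.72 ± 0.24 with siEA1-1 (adjusted p = 0.0326) and 0.34 ± 0.25 with siEA1-2 (adjusted p = 0.319) by edgeR, and FDPS, the farnesyl diphosphate synthase, of 0.33 ± 0.11 with siEA1-1 (adjusted p = 0.0338) and 0.11 ± 0.11 with siEA1-2 (adjusted p = 0.470). ACAT2, the cytosolic thiolase that opens the route, had 35.5 and 36 CPM in siNeg1, 40.5 and 51 CPM with siEA1-1, and 49 and 44.9 CPM with siEA1-2. All 4 of its knockdown libraries were higher than siNeg1. Its log2FC was 0.35 ± 0.14 with siEA1-1 (adjusted p = 0.0690) and 0.39 ± 0.14 with siEA1-2 (adjusted p = 0.0511) by edgeR, so that it was called with neither siRNA taken singly, but it was among the 18 genes called higher in the average of both. Without siEA1-1 replicate 1, ACAT2 was called higher with siEA1-1 (log2FC 0.52) and with siEA1-2 (log2FC 0.39). With siEA1-2 it was also called when at least 10 counts were required in every library, and with a block on the replicate number (log2FC 0.39). IDI1, the isopentenyl diphosphate isomerase, had a log2FC of 0.12 ± 0.12 and 0.28 ± 0.12 with the respective siRNAs and was not called. PMVK, the kinase after MVK, was the only gene of the arm with a negative log2FC, at -0.38 ± 0.22 and -0.59 ± 0.23. It was not called over all 6 libraries with no block. With a block on the replicate number it was called lower with siEA1-2 (log2FC -0.58, adjusted p = 0.0272 by edgeR). Without siNeg1 replicate 2, PMVK was called lower with siEA1-2 (log2FC -0.82). MVK with siEA1-1 was not called without siNeg1 replicate 2 (log2FC 0.62). MVD was not called without siNeg1 replicate 1, siNeg1 replicate 2 or siEA1-1 replicate 2 (log2FC 0.45 to 0.72), nor was FDPS without siNeg1 replicate 1, siNeg1 replicate 2, siEA1-1 replicate 1 or siEA1-1 replicate 2 (log2FC 0.23 to 0.41).

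From farnesyl diphosphate to lanosterol the pathway has 3 genes among the members, of which FDFT1 and SQLE rose with each siRNA and LSS was not called. FDFT1, the squalene synthase at the commitment to sterols, had 67 and 64.2 CPM in siNeg1, 209 and 224 CPM with siEA1-1, and 178 and 165 CPM with siEA1-2. The replicates of FDFT1 were close to each other in every condition, and the log2FC was 1.72 ± 0.10 with siEA1-1 (adjusted p = 4.80e-07) and 1.39 ± 0.10 with siEA1-2 (adjusted p = 2.37e-06) by edgeR. SQLE, the squalene epoxidase and a rate-controlling step of the pathway, had 56.1 and 65.6 CPM in siNeg1, 227 and 323 CPM with siEA1-1, and 255 and 258 CPM with siEA1-2. Its rise of 4.51-fold and 4.21-fold was the largest fitted among the enzymes of the 33 members, although its standard error overlapped that of DHCR7, with a log2FC of 2.17 ± 0.16 with siEA1-1 (adjusted p = 1.64e-06) and 2.07 ± 0.16 with siEA1-2 (adjusted p = 2.73e-06) in the edgeR test. LSS, the lanosterol synthase that follows SQLE, had 60.6 and 74.1 CPM in siNeg1, 63.7 and 82 CPM with siEA1-1, and 67.1 and 74.4 CPM with siEA1-2. The LSS groups overlapped, and its log2FC was 0.11 ± 0.14 with siEA1-1 and 0.07 ± 0.14 with siEA1-2.

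Of the 8 genes between lanosterol and cholesterol, 6 were called higher with each siRNA, beside 19.9% of all genes tested with siEA1-1 and 18.5% with siEA1-2. The median log2FC of these 8 genes was 1.04 with siEA1-1 and 0.76 with siEA1-2. DHCR7, the reductase of the last step of the Kandutsch-Russell route, had 10.8 and 14.7 CPM in siNeg1, 43.9 and 63.9 CPM with siEA1-1, and 52 and 41.4 CPM with siEA1-2, and a log2FC of 2.07 ± 0.22 with siEA1-1 (adjusted p = 2.18e-05) and 1.86 ± 0.22 with siEA1-2 (adjusted p = 6.25e-05) by edgeR. MSMO1, which oxidizes the methyl groups at carbon 4 of the sterol ring, had 31.9 and 36 CPM in siNeg1, 98.7 and 140.3 CPM with siEA1-1, and 79 and 94.5 CPM with siEA1-2. The log2FC of MSMO1 was 1.81 ± 0.17 with siEA1-1 (adjusted p = 9.02e-06) and 1.35 ± 0.17 with siEA1-2 (adjusted p = 9.69e-05) in the edgeR test. Of the genes of these steps with fewer counts, HSD17B7 (3-keto reductase) had 9.13 and 7.71 CPM in siNeg1, 23.6 and 22.2 CPM with siEA1-1, and 20.1 and 23 CPM with siEA1-2 and a log2FC of 1.45 ± 0.19 with siEA1-1 (adjusted p = 1.25e-04) and 1.36 ± 0.20 with siEA1-2 (adjusted p = 2.49e-04) by edgeR, and CYP51A1 (lanosterol demethylase) of 1.39 ± 0.26 with siEA1-1 (adjusted p = 0.00125) and 0.91 ± 0.27 with siEA1-2 (adjusted p = 0.0198). NSDHL, the decarboxylating dehydrogenase of the same demethylation complex, and SC5D, the sterol desaturase, had smaller fitted changes, with a log2FC of 0.68 ± 0.16 and 0.60 ± 0.16 for NSDHL and 0.64 ± 0.14 and 0.57 ± 0.14 for SC5D. EBP, the sterol isomerase, had 17.2 and 16.2 CPM in siNeg1, 14.1 and 17.3 CPM with siEA1-1, and 20.3 and 12.1 CPM with siEA1-2, and its siNeg1 libraries lay within the range of the knockdown libraries. TM7SF2, a sterol reductase, had 7 to 20 counts per library and was not called, and its log2FC had a standard error of 0.54 with siEA1-1 and 0.56 with siEA1-2. With siEA1-2, CYP51A1 was not called without siNeg1 replicate 1, siNeg1 replicate 2 or siEA1-2 replicate 1 (log2FC 0.80 to 0.96), NSDHL not without siNeg1 replicate 2 or siEA1-2 replicate 1 (log2FC 0.48 to 0.51), and SC5D not without siNeg1 replicate 1 (log2FC 0.46). With siEA1-1, NSDHL was not called without siNeg1 replicate 2 or siEA1-1 replicate 2 (log2FC 0.54 to 0.56).

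The lipoprotein receptors of the list moved in opposite directions. VLDLR (ENSG00000147852, chromosome 9 from 2621182 to 2660056), the very low density lipoprotein receptor, had 36.5 and 33 CPM in siNeg1, 212 and 228 CPM with siEA1-1, and 102 and 116 CPM with siEA1-2. The 3 conditions did not overlap, and the log2FC was 2.66 ± 0.12 with siEA1-1 (adjusted p = 1.17e-07) and 1.65 ± 0.12 with siEA1-2 (adjusted p = 1.74e-06) by edgeR's quasi-likelihood test. VLDLR was also called between the siRNAs, with a log2FC of -1.01 ± 0.11 for siEA1-2 against siEA1-1 (adjusted p = 0.00120, the same edgeR test). LRP8 (ENSG00000157193, chromosome 1 from 53242364 to 53328469), its close relative that binds reelin and apolipoprotein E, had 84.6 and 91 CPM in siNeg1, 47.5 and 49.7 CPM with siEA1-1, and 37.2 and 56.9 CPM with siEA1-2. Every knockdown library of LRP8 was below both siNeg1 libraries, with a log2FC of -0.85 ± 0.16 with siEA1-1 (adjusted p = 0.00148) and -0.89 ± 0.16 with siEA1-2 (adjusted p = 0.00133) in the edgeR test. STARD4, a soluble protein that moves cholesterol between membranes, had 29 and 66 counts in siNeg1 and 92 to 115 counts in the knockdown libraries. Its log2FC was 1.21 ± 0.30 with siEA1-1 (adjusted p = 0.00667) and 1.42 ± 0.29 with siEA1-2 (adjusted p = 0.00285) by edgeR, and it was not called with siEA1-1 without siNeg1 replicate 1 or siEA1-1 replicate 2 (log2FC 0.82 to 0.99).

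Of the 7 genes of fatty acid synthesis, SCD was called higher with each siRNA, FADS2 higher with siEA1-1 and FASN lower with siEA1-2. Over all genes tested, 19.9% were called higher and 20.3% lower with siEA1-1, and 18.5% and 18.2% with siEA1-2. The 28.6% called higher with siEA1-1 and the 14.3% called each way with siEA1-2 lay near these shares. The median log2FC of the 7 genes was 0.00 with siEA1-1 and -0.09 with siEA1-2. SCD (ENSG00000099194, chromosome 10 from 100347233 to 100364826), the stearoyl-CoA desaturase that makes oleate and palmitoleate, had 996 and 1066 CPM in siNeg1, 3282 and 4301 CPM with siEA1-1, and 3919 and 2958 CPM with siEA1-2. This is a rise of 3.68-fold and 3.33-fold, with a log2FC of 1.88 ± 0.17 with siEA1-1 (adjusted p = 6.60e-06) and 1.74 ± 0.17 with siEA1-2 (adjusted p = 1.41e-05) by edgeR. FASN (ENSG00000169710, chromosome 17 from 82078338 to 82098294), the fatty acid synthase that makes palmitate, had 831 and 1105 CPM in siNeg1, 517 and 822 CPM with siEA1-1, and 481 and 664 CPM with siEA1-2. Both siEA1-2 libraries and both siEA1-1 libraries of FASN were below siNeg1 replicate 1, the lower of the siNeg1 values, but siEA1-1 replicate 2 only narrowly. In each condition replicate 1 of FASN was below replicate 2. Its log2FC was -0.53 ± 0.21 with siEA1-1 (adjusted p = 0.0688) and -0.76 ± 0.22 with siEA1-2 (adjusted p = 0.0169) by edgeR, so that FASN was called lower with siEA1-2 and missed the threshold with siEA1-1. FASN with siEA1-2 was not called without siNeg1 replicate 2 (log2FC -0.57), nor by DESeq2 over 3 conditions. With a block on the replicate number, FASN was called lower with siEA1-1 (log2FC -0.55, adjusted p = 3.91e-04 by edgeR). It was also called lower with siEA1-1 without siEA1-1 replicate 2 (log2FC -0.93) and without siNeg1 replicate 1 (log2FC -0.72). The same held without either siEA1-2 library (log2FC -0.56 and -0.55) and without the filter on low counts (log2FC -0.54). Counts of SCD were 1.2 and 0.965 times those of FASN in siNeg1, 6.35 and 5.23 times with siEA1-1, and 8.15 and 4.46 times with siEA1-2. ACLY, which makes cytosolic acetyl-CoA from citrate, had 183 and 180.5 CPM in siNeg1, 167 and 190.0 CPM with siEA1-1, and 208 and 214 CPM with siEA1-2, with a log2FC of -0.03 ± 0.10 and 0.21 ± 0.10. ACACA, the acetyl-CoA carboxylase that commits carbon to fatty acids, had a log2FC of 0.01 ± 0.15 and -0.09 ± 0.15, and its sign with siEA1-1 was negative with RLE size factors. ELOVL6, which extends palmitate, had a log2FC of 0.00 ± 0.21 and -0.48 ± 0.21, of which the former also turned negative with RLE size factors. None of ACLY, ACACA and ELOVL6 was called over all 6 libraries with no block. With a block on the replicate number, ELOVL6 was called lower with siEA1-2 (log2FC -0.49, adjusted p = 0.0162 by edgeR). It was also called lower with siEA1-2 without siEA1-1 replicate 1, siEA1-1 replicate 2 or siEA1-2 replicate 2 (log2FC -0.66 to -0.48). FADS2, which with FADS1 desaturates polyunsaturated fatty acids, had 7.48 and 9.0 CPM in siNeg1, 15.5 and 19.6 CPM with siEA1-1, and 7.65 and 10.5 CPM with siEA1-2, with a log2FC of 1.08 ± 0.25 with siEA1-1 (adjusted p = 0.00445) and 0.15 ± 0.26 with siEA1-2 (adjusted p = 0.697) by edgeR, and was not called without siEA1-1 replicate 2 (log2FC 0.89). FADS1 had a log2FC of -0.14 ± 0.15 and -0.11 ± 0.15 and was not called. Exons of FADS1 and FADS2 overlap on opposite strands, and reads of the overlap cannot be assigned where strand was not used in counting. The sources used here do not state its use, and 11 of the 33 members have exons that overlap a gene of the opposite strand in the counts, among them VLDLR, SREBF2, FDFT1, MVK, CYP51A1 and LRP8. On the same strand, exons of FADS2 overlap FEN1 and those of TM7SF2 overlap VPS51, which strand cannot resolve. The pseudogenes HSD17B7P2 and CYP51A1P3 are also rows of the counts. The part of these genes in the counts of the members was not tested.

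**Figure D3:**
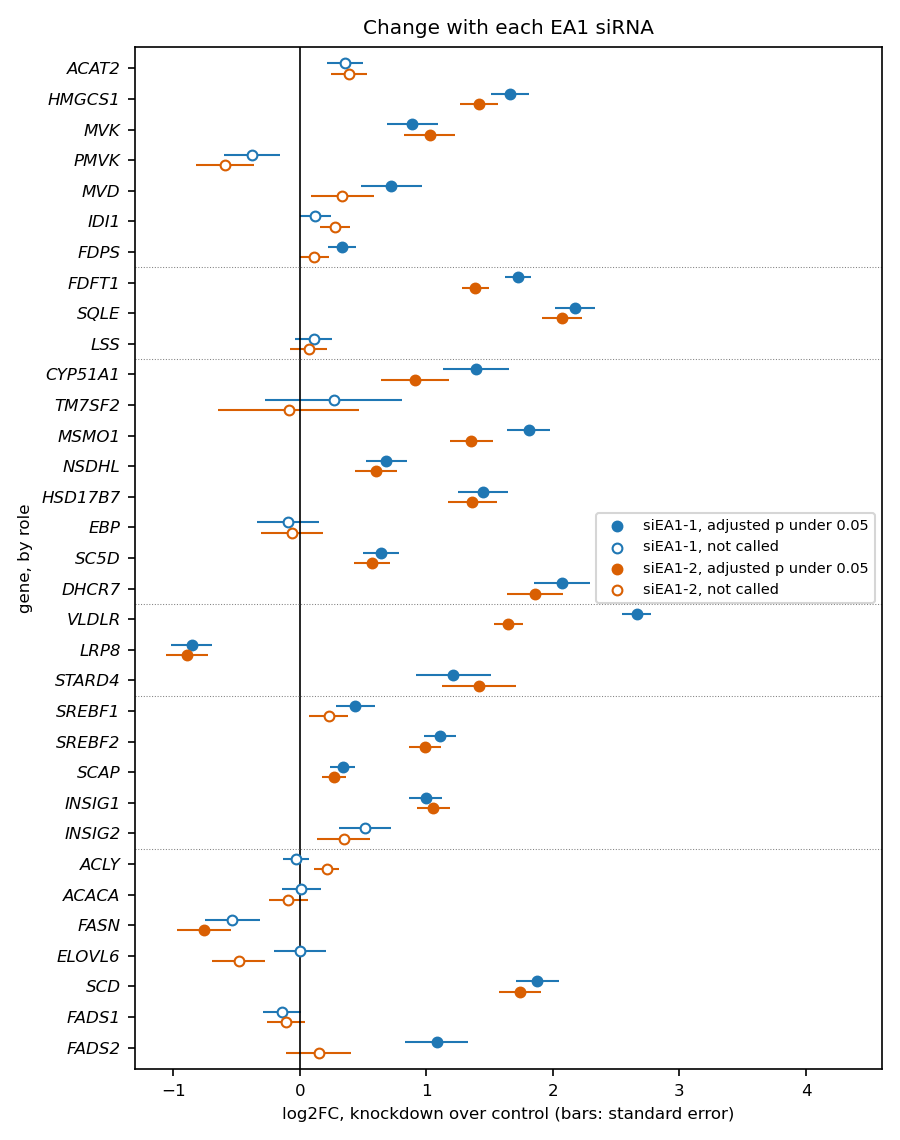
The log2FC of each member with siEA1-1 (blue) and siEA1-2 (orange) over siNeg1 with its standard error; filled points have an adjusted p under 0.05 by edgeR, and dotted lines separate the roles. Most sterol genes lie to the right, VLDLR at 2.66 and 1.65 shows a gap between the siRNAs, and of the fatty acid genes SCD alone is filled for both.

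Between the siRNAs, edgeR called 0 members higher and 1 lower in siEA1-2 against siEA1-1, where 1.44% and 0.796% of all genes tested were called. The share over all genes was not counted at an unadjusted p under 0.05 by edgeR, so that no count of members is given at that threshold. DESeq2 over 3 conditions also called 0 members higher and 1 lower, where it called 330 and 134 of 8634 genes. The 95% interval of the difference was -0.42 to 0.22 for SQLE, -0.39 to 0.15 for SREBF2, -0.21 to 0.33 for INSIG1 and -0.50 to 0.21 for SCD, all of which include 0. Besides VLDLR, the unadjusted interval excluded 0 for FDFT1 (-0.55 to -0.12), MSMO1 (-0.80 to -0.11), FADS2 (-1.47 to -0.39), ELOVL6 (-0.95 to -0.02) and ACLY (0.02 to 0.46), none of which passed the adjusted threshold. For FADS2, called higher with siEA1-1 and not with siEA1-2, the difference was -0.93 ± 0.25 with an adjusted p of 0.0792 in the edgeR test, and for FASN it was -0.23 ± 0.22 with 0.667. The intervals of MVD (-0.91 to 0.14), FDPS (-0.47 to 0.03) and SREBF1 (-0.54 to 0.12) include 0. Without siEA1-2 replicate 2, the log2FC of FADS2 between the siRNAs was -1.20.

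Levels were also set side by side per length, as CPM per kb of annotated exon. In siNeg1 the SCD level was 197 ± 9.44 CPM per kb and that of FASN 104 ± 20.7, followed by ACLY at 34.9 ± 0.386. Below these 3 genes, the next levels were those of SCAP, PMVK (19.1 ± 3.81), FDPS (18 ± 1.36) and SREBF2 (17.6 ± 0.670), of which PMVK, FDPS and SREBF2 lay within the SD of the 2 libraries from one another. At the low end were FADS2 at 0.781 ± 0.102 and TM7SF2 at 0.531 ± 0.316 CPM per kb. SQLE moved from rank 9 of the 33 genes in siNeg1 to rank 3 with each siRNA, at 63.9 ± 15.6 CPM per kb with siEA1-1 and 59.6 ± 0.529 with siEA1-2. In both knockdowns its level came close to that of FASN, at 71.8 ± 23.2 and 61.4 ± 13.9 CPM per kb, and did not differ from it beyond the SD. The 33 genes together held 0.333% and 0.380% of all counts in siNeg1, 0.632% and 0.811% with siEA1-1, and 0.638% and 0.607% with siEA1-2. Without SCD these shares were 0.233% and 0.271%, 0.298% and 0.381%, and 0.267% and 0.311%.

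**Figure D4:**
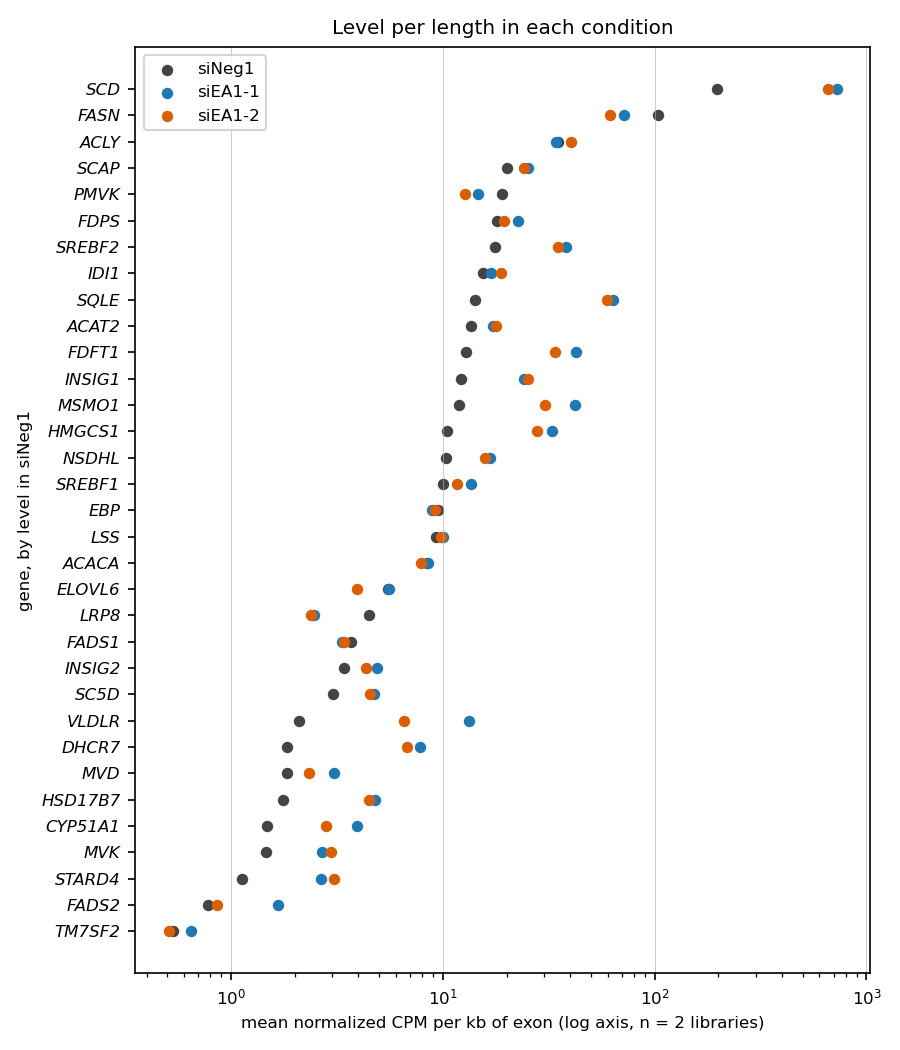
Mean normalized CPM per kb of exon (log axis) of each gene in siNeg1, siEA1-1 and siEA1-2 with n = 2 libraries per point, sorted by the siNeg1 level. SCD lies highest in every condition, and SQLE, FDFT1, MSMO1 and HMGCS1 pass SCAP, PMVK, FDPS and IDI1 after knockdown.

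Promoters of 6 members are shown because they carry, or lack, the letters that SREBP, NF-Y and ATF/CREB factors are known to bind. They span 250 bases before to 50 bases after the start of each gene, from RefSeq on GRCh38.p14, and run 5′ to 3′ on the strand of the gene. Capitals mark matches on either strand to CACNCCAC (a core of the sterol regulatory element), CCAAT (the NF-Y box) and TGACG (the core of the cAMP response element, which is also part of the full element TGACGTCA). In SCD, CCAAT and TGACG overlap within the same capitals. SREBF2, INSIG1 and SCD rose with each siRNA and hold all 3 short motifs, MSMO1 rose and holds CCAAT 4 times, LRP8 fell and holds TGACG alone, and FADS1 was not called and holds the full element. TGACG alone was also found in CYP51A1, which rose, and in IDI1 and INSIG2, which were not called. The IDI1 window, on chromosome 10 from 1056655 to 1056954, lies outside the gene as placed by the annotation used for exon lengths (1039152 to 1049119).
SREBF2 (chr22:41832855-41833154, plus strand): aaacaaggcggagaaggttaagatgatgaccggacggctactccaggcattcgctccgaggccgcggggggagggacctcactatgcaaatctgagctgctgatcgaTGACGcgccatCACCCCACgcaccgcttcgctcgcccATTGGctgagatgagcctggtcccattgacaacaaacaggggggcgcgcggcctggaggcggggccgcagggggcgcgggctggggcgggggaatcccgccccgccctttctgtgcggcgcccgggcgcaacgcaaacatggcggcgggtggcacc
INSIG1 (chr7:155297628-155297927, plus strand): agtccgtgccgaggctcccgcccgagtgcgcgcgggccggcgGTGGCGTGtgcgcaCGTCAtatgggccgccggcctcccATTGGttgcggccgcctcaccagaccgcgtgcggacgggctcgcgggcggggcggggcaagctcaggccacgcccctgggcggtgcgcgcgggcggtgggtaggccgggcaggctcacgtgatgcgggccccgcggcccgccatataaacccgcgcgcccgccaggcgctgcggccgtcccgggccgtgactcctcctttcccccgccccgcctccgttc
SCD (chr10:100346983-100347282, plus strand): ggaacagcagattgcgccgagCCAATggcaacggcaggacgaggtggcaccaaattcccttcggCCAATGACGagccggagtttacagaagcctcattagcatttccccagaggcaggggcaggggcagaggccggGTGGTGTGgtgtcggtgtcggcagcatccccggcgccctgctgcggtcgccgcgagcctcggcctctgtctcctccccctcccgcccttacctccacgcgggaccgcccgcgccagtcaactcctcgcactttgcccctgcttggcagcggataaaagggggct
MSMO1 (chr4:165327419-165327718, plus strand): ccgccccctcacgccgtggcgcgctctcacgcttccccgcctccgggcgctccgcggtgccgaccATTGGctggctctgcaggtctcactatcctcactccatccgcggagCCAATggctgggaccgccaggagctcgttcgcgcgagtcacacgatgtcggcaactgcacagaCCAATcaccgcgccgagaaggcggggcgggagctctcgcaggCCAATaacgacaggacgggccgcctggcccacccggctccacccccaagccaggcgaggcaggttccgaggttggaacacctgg
LRP8 (chr1:53328021-53328320, minus strand): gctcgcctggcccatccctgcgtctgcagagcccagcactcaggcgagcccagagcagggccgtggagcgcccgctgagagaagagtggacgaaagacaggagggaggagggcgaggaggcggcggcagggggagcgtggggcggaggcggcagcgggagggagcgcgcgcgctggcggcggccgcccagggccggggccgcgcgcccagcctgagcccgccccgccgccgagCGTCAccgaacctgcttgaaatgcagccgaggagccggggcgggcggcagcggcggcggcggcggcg
FADS1 (chr11:61816954-61817253, minus strand): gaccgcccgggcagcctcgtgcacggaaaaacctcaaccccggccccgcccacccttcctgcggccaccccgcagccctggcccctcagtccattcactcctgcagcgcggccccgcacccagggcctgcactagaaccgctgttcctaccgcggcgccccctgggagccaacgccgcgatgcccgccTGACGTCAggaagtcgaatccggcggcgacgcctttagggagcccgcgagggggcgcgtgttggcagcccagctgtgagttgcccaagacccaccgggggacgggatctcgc

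Of the 33 members, 29 were matched by symbol to a promoter. CCAAT was found in 17 of these 29 promoters (58.6%), in 34.6% of all 35116 promoters of the table and in 37.5% of the 10319 promoters of genes tested. Of the 14 matched genes called higher with each siRNA, 11 held it, against 6 of the other 15. CACNCCAC was found in 4 of the 29 promoters (13.8%), in 5.87% of all promoters and in 5.65% of those of genes tested. These were SC5D, SREBF2, INSIG1 and SCD, 4 of the 14 called higher with each siRNA, against 0 of the other 15. HMGCS1, MVK, MSMO1 and DHCR7 were among the 14 that lacked it. In SREBF2 CACNCCAC began 132 bases before the start, in INSIG1 208 and in SCD 114, whereas in SC5D it lay after the start. TGACG was found in 7 of the 14 and in 7 of the 15, in 24.6% of all promoters and in 34.8% of those of genes tested. The full TGACGTCA was found in FADS1 alone, 62 bases before the start, in 1.85% of all promoters and in 3.42% of those of genes tested. The windows of VLDLR and SCAP, both called higher with each siRNA, held none of these motifs. A match describes letters in these windows only, and no binding was measured here.

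Other genes of the pathway were taken from further lists, whose counts of calls stand beside 19.9% higher and 20.3% lower over all genes tested with siEA1-1, and 18.5% and 18.2% with siEA1-2. The 10 genes of SREBP processing below, with 30% higher and 20% lower for each siRNA, lay near these shares. So did the isoprenoid branches, with 18.2% lower with siEA1-1 and 18.2% higher with siEA1-2. For the LXR list, 25% and 12.5% were called higher with the respective siRNAs, and for fatty acid elongation, desaturation and activation 31.6% with each. No list was tested against the shares. Of 10 genes of SREBP processing and sterol-regulated degradation, 3 were called higher and 2 lower with each siRNA, at a median log2FC of 0.08 with siEA1-1 and 0.05 with siEA1-2. SPRING1, a Golgi protein needed for SREBP cleavage, had 294 and 264 CPM in siNeg1, 689.7 and 611 CPM with siEA1-1, and 848 and 749 CPM with siEA1-2, with a log2FC of 1.22 ± 0.12 with siEA1-1 (adjusted p = 1.06e-05) and 1.52 ± 0.12 with siEA1-2 (adjusted p = 3.20e-06) by edgeR. RNF145, a ubiquitin ligase of the endoplasmic reticulum, had a log2FC of -1.07 ± 0.16 with siEA1-1 (adjusted p = 2.39e-04) and -1.28 ± 0.16 with siEA1-2 (adjusted p = 9.00e-05) in the same test. Of 11 genes of the isoprenoid branches, which use the same precursors for prenyl groups, dolichol and ubiquinone, 1 was called higher and 2 lower with siEA1-1, and 2 and 1 with siEA1-2, at a median log2FC of -0.04 with siEA1-1 and 0.06 with siEA1-2. There FNTB, a farnesyltransferase subunit, had a log2FC of 0.88 ± 0.14 with siEA1-1 (adjusted p = 4.91e-04) and 0.48 ± 0.15 with siEA1-2 (adjusted p = 0.0225) and RABGGTB, a subunit of the enzyme that prenylates Rab proteins, of -0.71 ± 0.12 with siEA1-1 (adjusted p = 6.48e-04) and -0.43 ± 0.12 with siEA1-2 (adjusted p = 0.0147) by edgeR. With siEA1-2, FNTB was not called without siNeg1 replicate 1 (log2FC 0.33) nor by DESeq2, and RABGGTB was not called without siNeg1 replicate 2 or siEA1-2 replicate 1 (log2FC -0.40 to -0.34). Of 8 genes of the LXR pathway and sterol efflux, 2 were called higher and 0 lower with siEA1-1, and 1 and 1 with siEA1-2, at a median log2FC of 0.21 with siEA1-1 and 0.03 with siEA1-2. MYLIP, a ubiquitin ligase that degrades lipoprotein receptors, had a log2FC of 1.43 ± 0.13 with siEA1-1 (adjusted p = 6.75e-06) and 0.84 ± 0.13 with siEA1-2 (adjusted p = 4.10e-04) by edgeR. Of 19 genes tested for fatty acid elongation, desaturation and activation, 6 were called higher and 3 lower with siEA1-1, and 6 and 2 with siEA1-2, at a median log2FC of 0.12 with siEA1-1 and 0.25 with siEA1-2. ACACB, the mitochondrial acetyl-CoA carboxylase, had 28.6 and 33.9 CPM in siNeg1, 88.7 and 74.6 CPM with siEA1-1, and 82.8 and 69.3 CPM with siEA1-2, a rise with a log2FC of 1.38 ± 0.14 with siEA1-1 (adjusted p = 1.88e-05) and 1.28 ± 0.14 with siEA1-2 (adjusted p = 4.48e-05) by edgeR. ACSL1, a long-chain acyl-CoA synthetase, had 1647 and 1749 CPM in siNeg1, 542 and 640.4 CPM with siEA1-1, and 553 and 699 CPM with siEA1-2. Its log2FC was -1.52 ± 0.14 with siEA1-1 (adjusted p = 7.03e-06) and -1.44 ± 0.14 with siEA1-2 (adjusted p = 1.30e-05) in the same test.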

How the data were processed

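RNA of SU-CCS-1 cells was sequenced as stranded mRNA libraries. Per the labels and methods, the authors mapped reads to hg38 by BWA-MEM, an aligner that is not splice-aware, and used featureCounts 1.6.3 to obtain gene counts. The deposited values are these raw counts for each library. The annotation, the use of strand and any row filter are not given in the sources used here. Every deposited row had at least 6 counts in some library. Groups and replicate numbers come from the sample titles, and the columns were matched by the library names in the descriptions.

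From the counts, edgeR 4.0.16 (R 4.3.3) was run on all 6 libraries as 3 conditions, with filterByExpr (minimum count 10, minimum total 15), leaving 14571 genes. Libraries were scaled by TMM and compared by the quasi-likelihood test. Adjustment followed Benjamini and Hochberg over all genes tested, with calls under 0.05. Standard errors were taken from the F statistic, log2 CPM used a prior count of 2, and exon lengths and positions came from GENCODE release 44 (18063 of 18118 genes matched). The fit was tested on simulated data. Alternatives were leaving out each library, blocking on the replicate number, RLE scaling, 2 other filters and DESeq2 1.42.0. Every listed member is named. In the other lists, those named are the genes called with both siRNAs that have the largest averaged change in each direction. The members and lists were chosen with earlier results of these data known. Figures were drawn with matplotlib 3.10.9. Some genes of the pathway are not analysed here.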

Additional observations from a re-analysis of the deposited data

Results flagged for a closer look

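VLDLR differed between the EA1 siRNAs by the test of the difference itself, and was the only member called so over all 6 libraries with no block. Its log2FC for siEA1-2 against siEA1-1 was -1.01 ± 0.11 (95% interval -1.25 to -0.78), with an adjusted p of 0.00120 by edgeR's quasi-likelihood test, and of 6.67e-05 to 0.0277 with a library left out. Both siEA1-1 libraries, at 212 and 228 CPM, lay above both siEA1-2 libraries, at 102 and 116 CPM. ATF1 stood at 20.7 CPM with siEA1-1 and 22 CPM with siEA1-2 on average. VLDLR-AS1 lies opposite to VLDLR exons, and its part in the VLDLR counts was not tested.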

How the results depend on the processing

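Of the members called without alternatives, HMGCS1, FDFT1, SQLE, MSMO1, HSD17B7, DHCR7, VLDLR, LRP8, SREBF2, INSIG1 and SCD kept their direction and call with each siRNA under all alternatives run, 11 in all, and no called member changed sign under any of them. With the replicate block the calls lower were 2 with siEA1-1 and 4 with siEA1-2, where 3264 and 2946 of all 14571 genes tested were called lower. Without the filter 2 members were called lower with siEA1-1. DESeq2 over 3 conditions called 1 lower with siEA1-2 and 1 lower for the average of both siRNAs. With a library left out, 13 to 20 members were called higher and 1 to 2 lower with siEA1-1, 13 to 16 and 2 to 3 with siEA1-2, 14 to 20 and 2 to 3 for the average, and 0 and 1 to 2 between the siRNAs. The lowest count with siEA1-1 came without its replicate 2, in a fit where fewer of all genes tested were called higher too. In these fits the lone library of a condition is assumed to vary like the others. MVD, FDPS and SREBF1 with siEA1-1, and CYP51A1 and SCAP with siEA1-2, were not called by DESeq2 either over 3 conditions or over the 4 libraries compared. DESeq2 also did not call SCAP with siEA1-1 over 3 conditions, nor NSDHL and SC5D with siEA1-2 over the 4 libraries. SCAP with siEA1-2 was not called with RLE size factors or without the filter either. FASN with siEA1-1 was called lower with the block, without the filter and in 4 of the 6 fits with a library left out. FASN with siEA1-2 was not called by DESeq2 over 3 conditions or without siNeg1 replicate 2. The causes were not tested.

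Some genes that were not called changed sign. With siEA1-1, ACACA was at -0.00503 with RLE size factors, -0.00636 with DESeq2 over 3 conditions and -0.00526 over 4 libraries, and ELOVL6 at -0.0148, -0.0131 and -0.0117 in these, -0.00927 with the block and -2.70e-04 without the filter. With a library left out, the siEA1-1 log2FC ranged over -0.17 to 0.17 for ACACA, -0.39 to 0.31 for ELOVL6, -0.10 to 0.28 for LSS, -0.21 to 1.04 for TM7SF2, -0.27 to 0.0525 for EBP, -0.14 to 0.0649 for ACLY and -0.0376 to 0.25 for IDI1. With siEA1-2 the ranges were -0.0619 to 0.19 for LSS, -0.57 to 0.68 for TM7SF2, -0.37 to 0.0917 for ACACA, -0.49 to 0.25 for EBP, -0.14 to 0.33 for FADS2 and -0.16 to 0.0456 for EWSR1.

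The labels share replicate numbers across conditions but do not say that a number marks a shared culture or day. Deviations of same-numbered libraries from their condition's mean correlated across genes at 0.130 to 0.199. With the replicate block 20 members were called higher with siEA1-1 and 17 with siEA1-2, where 3220 and 2990 of all 14571 genes tested were called higher. The block lost no call, and added FASN lower with siEA1-1 (-0.55, adjusted p = 3.91e-04) and, with siEA1-2, ACAT2 higher (0.39, adjusted p = 0.0353), PMVK lower (-0.58, adjusted p = 0.0272) and ELOVL6 lower (-0.49, adjusted p = 0.0162) by edgeR. Between the siRNAs it called 3 members lower in place of 1, adding MSMO1 (-0.45, adjusted p = 0.0260) and FADS2 (-0.95, adjusted p = 0.0193) by edgeR. Calls between the siRNAs over all 14571 genes also rose with the block, from 210 to 530 higher and from 116 to 323 lower. TM7SF2, with 7 to 20 counts per library, had the widest standard errors among the members.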

Other observations

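Neighbouring lipid pathways were counted in the same way, where 19.9% of all genes tested were called higher and 20.3% lower with siEA1-1, and 18.5% and 18.2% with siEA1-2. Of 16 genes of sterol trafficking and storage, 7 were called higher and 4 lower with siEA1-1, and 6 and 4 with siEA1-2, at a median log2FC of 0.36 with siEA1-1 and 0.43 with siEA1-2, by edgeR's quasi-likelihood test. The 25% called lower with each siRNA lay near the share over all genes. LRP1, a large endocytic receptor of the same family as VLDLR and LRP8, had 25 and 26.5 CPM in siNeg1, 62.9 and 72 CPM with siEA1-1, and 54.8 and 58 CPM with siEA1-2, with a log2FC of 1.39 ± 0.13 with siEA1-1 (adjusted p = 8.22e-06) and 1.13 ± 0.13 with siEA1-2 (adjusted p = 4.60e-05) by edgeR. Its siNeg1 libraries lay below all 4 knockdown libraries, whereas those of LRP8 lay above them. GRAMD1B, which carries cholesterol from the plasma membrane, had 21 and 24 counts in siNeg1 and 5 to 7 counts in each knockdown library, with a log2FC of -1.74 ± 0.54 with siEA1-1 (adjusted p = 0.0226) and -1.48 ± 0.52 with siEA1-2 (adjusted p = 0.0449) in the same test. GRAMD1B was not called by DESeq2 or with some libraries left out, without siNeg1 replicate 1, siNeg1 replicate 2, siEA1-1 replicate 1 or siEA1-1 replicate 2 (log2FC -2.12 to -1.42) for siEA1-1, and with siEA1-2 whichever library was left out.

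Of 11 genes of glycerolipid synthesis, which build membrane and storage lipids on fatty acids, 6 were called higher and 1 lower with siEA1-1, and 5 and 1 with siEA1-2, at a median log2FC of 0.40 with siEA1-1 and 0.32 with siEA1-2. AGPAT4, an acyltransferase of phosphatidic acid synthesis, had 2 and 10 counts in siNeg1 and 50 to 66 counts in each knockdown library. The log2FC of AGPAT4 was 3.39 ± 0.48 with siEA1-1 (adjusted p = 1.75e-04) and 3.33 ± 0.48 with siEA1-2 (adjusted p = 2.59e-04) by edgeR. AGPAT5, a mitochondrial member of the same family, had 77.5 and 84 CPM in siNeg1, 38.1 and 34.1 CPM with siEA1-1, and 38.1 and 51.8 CPM with siEA1-2. AGPAT5 fell, with a log2FC of -1.16 ± 0.15 with siEA1-1 (adjusted p = 9.14e-05) and -0.84 ± 0.15 with siEA1-2 (adjusted p = 9.61e-04) in the same edgeR test.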
